A study of Homo sapiens with 18 samples.

Results

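Death receptors are cell surface proteins of the tumor necrosis factor receptor family that can start apoptosis, and the genes of this axis were followed here in 18 RNA-seq libraries of ovarian cancer cells. They are FAS, TNFRSF1A, TNFRSF10A, TNFRSF10B and TNFRSF10D, the adaptor FADD, the initiator caspases CASP8, CASP10 and CASP2, and the caspase-like protein CFLAR. These 10 genes, of 28277 listed in the count table, were chosen by their symbols from a proposal made with earlier results of the same libraries known. Their fold changes and p-values are therefore a description and are not independent evidence on the choice. The cells are OVCAR3-KRAB, a derivative of OVCAR3, which is an established line of high-grade serous ovarian carcinoma. Every group expresses dCas9-KRAB, in which a Cas9 that cannot cut DNA carries the KRAB repressor, and all passed blasticidin and puromycin selection. The control sgCtl targets a Gal4 promoter, while sgXIST7 and sgXIST9 target different stretches of the promoter of XIST, the long noncoding RNA of X chromosome inactivation. Cells with each sgRNA grew in normoxia or spent 24 h in hypoxia (1% oxygen), with 3 replicates in each of the 6 groups. The cells are clonal, and the knockdown (KD) clones were selected for lost XIST, so an effect of an sgRNA and of its clone cannot be told apart.

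In this pathway a trimeric ligand (FASLG, TNF or TRAIL, the product of TNFSF10) clusters its receptor. FAS and the TRAIL receptors then bind FADD through death domains, FADD recruits procaspase-8 or procaspase-10 through death effector domains, and the caspases activate each other and carry the signal on. CFLAR encodes FLIP, which resembles caspase-8 without a working active site and holds it in check, and TNFRSF10D is a decoy that binds TRAIL but cannot pass on the death signal. TNFRSF1A first builds a complex with TRADD and RIPK1, whereas caspase-2 works outside this axis, on a platform of PIDD1 and CRADD.

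Total counts ranged from 11794375 to 24906936 per library, and 14938 genes passed the filter on low counts and were tested. XIST held at most 5 counts in the 6 sgXIST7 libraries and from 357 to 1009 in the 6 sgXIST9 libraries, against 1589 to 11209 in the 6 sgCtl libraries, so the KD was deeper in sgXIST7. Among 6 hypoxia-induced control genes, 5 (CA9, VEGFA, NDRG1, ANKRD37 and SLC2A1) rose in hypoxia in each line. ADM rose by 4.54 in sgXIST7 and 3.93 in sgXIST9 on the log2 scale, with a value of 0.17 in sgCtl (adjusted p = 0.57, edgeR). The sgCtl cells already had more ADM in normoxia, with values against sgCtl of −5.145 in sgXIST7 and −5.355 in sgXIST9 (adjusted p = 1.2e-09 and 6.3e-10). In hypoxia these values were −0.7825 and −1.595. Of 8 ovarian epithelial markers 4 were tested, with a summed level of 297 to 517 CPM (the count of a gene scaled to the TMM-normalized size of its library). EPCAM and KRT18 were the highest, with group means of 159.9 to 243.1 and 140.1 to 219.0 CPM. PAX8 had group means of 1.51 to 4.55 CPM, and WT1 held at most 14 counts per library. MUC16 held at most 4 counts and KRT7 and CDH1 at most 3 in every library. None of the 5 lymphoid and myeloid and 3 endothelial markers passed the filter on low counts, and they summed to at most 0.595 and 0.684 CPM. The hypoxia libraries of replicate 3 deviated together from their group means (correlation 0.38 to 0.566) and were the shallowest of their groups, and the sgCtl library among them correlated least with its own group (0.9586). Member counts are therefore also given without these 3 libraries, an alternative added after the data were seen.

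Of the 10 genes, 8 were expressed at levels that could be tested. TNFRSF10A, which encodes a TRAIL receptor with a death domain, had 2 counts over all 18 libraries. It held 1 count in each of 2 libraries and 0 in the other 16, where 3 counts in a library stand for 0.13 to 0.27 CPM. CASP10, an initiator caspase that also binds FADD, had 0 to 9 counts per library and 52 in all. Each remained under the filter, so neither was tested in the main fit. In a fit without the filter the CASP10 values from normoxia to hypoxia were 1.42, 1.68 and 0.8 in sgCtl, sgXIST7 and sgXIST9. None of them passed (adjusted p = 0.18, 0.15 and 0.47, edgeR).

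Across the 8 tested genes the sgCtl cells in normoxia held receptor, adaptor and caspase transcripts at unequal levels per length of exon. TNFRSF1A, the receptor for TNF, was highest with 29.5 CPM per kb, followed by TNFRSF10B, the death-signaling TRAIL receptor, with 23.8, FADD with 23.3 and CASP8 with 22.5 CPM per kb. CASP2 had 12.3, the decoy TNFRSF10D 10.1, FAS 5.37 and CFLAR 4.23 CPM per kb. The listed exon length of CFLAR, 21139 bases, is the longest of the 10, and its level per kb depends on it. FAS spanned the widest range among the 6 groups, with the highest group mean 11.7 times the lowest, followed by TNFRSF10D with 7.8 times and CASP2 with 4.19 times. TNFRSF1A varied least, by 1.32 times.

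**Figure D1:**
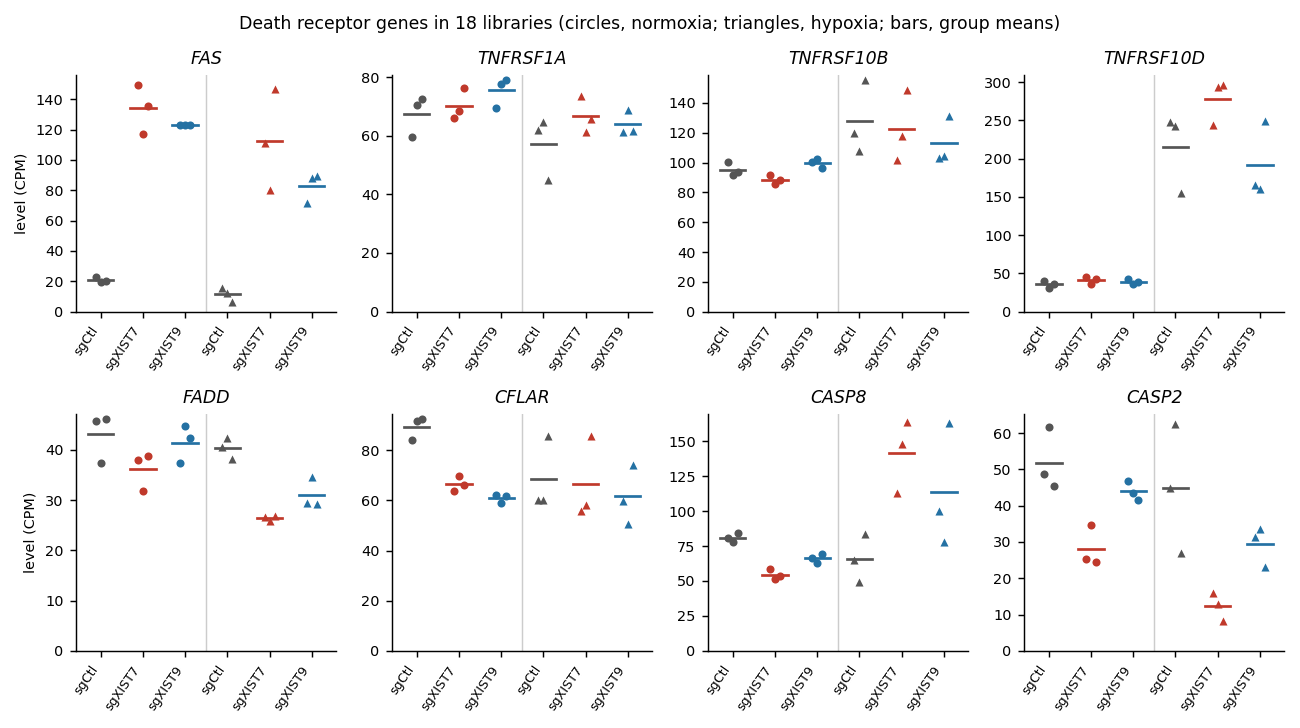
Levels of the 8 tested genes in CPM, each point being 1 library and each bar the mean of 3 replicates, with normoxia left of the grey line and hypoxia to its right. FAS separates both KD lines from sgCtl, TNFRSF10D separates hypoxia from normoxia in every line, and CASP8 is highest in KD cells in hypoxia.

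FAS, the receptor for FAS ligand, was the one member of the 8 tested that rose in both KD lines and at both oxygen levels. The share of all genes that did so was not computed. In normoxia the sgCtl libraries had 23.2, 19.5 and 20.1 CPM, the sgXIST7 libraries 149, 117 and 136 CPM and the sgXIST9 libraries 123, 123 and 123 CPM. In hypoxia the sgCtl libraries had 15.8, 12.5 and 6.29 CPM, the sgXIST7 libraries 111, 80.2 and 147 CPM and the sgXIST9 libraries 71.5, 88.4 and 89.1 CPM. Every KD library lay above every sgCtl library at both oxygen levels. FAS was thus 6.41-fold higher with sgXIST7 in normoxia (log2 fold change 2.68 ± 0.24 SE, adjusted p = 4.2e-07, edgeR) and 5.88-fold higher with sgXIST9 (2.56 ± 0.24, adjusted p = 5.8e-07). In hypoxia it was 9.64-fold higher with sgXIST7 (3.27 ± 0.25, adjusted p = 5e-08) and 7.12-fold higher with sgXIST9 (2.83 ± 0.25, adjusted p = 2.3e-07). Both KD lines are compared with the same sgCtl libraries at each oxygen level, while the normoxia and hypoxia comparisons share none. The same lines are compared at both oxygen levels, so neither comparison tells an sgRNA from its clone. The KD lines were not told apart from each other in FAS, with a difference of sgXIST7 minus sgXIST9 of 0.12 in normoxia (95% confidence interval −0.35 to 0.60) and 0.44 in hypoxia (−0.04 to 0.91). Without the replicate 3 hypoxia libraries the changes in hypoxia were 2.77 with sgXIST7 and 2.51 with sgXIST9.

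FAS differed far less between hypoxia and normoxia than between the KD lines and sgCtl, where sgRNA and clone cannot be told apart. In sgCtl it fell by 0.84 on the log2 scale (± 0.25 SE, adjusted p = 0.0086, edgeR), and the value was −0.25 in sgXIST7 (adjusted p = 0.34) and −0.57 in sgXIST9 (adjusted p = 0.041). The sgCtl call was lost without any of 5 of its 6 libraries, namely the 3 normoxia libraries and hypoxia replicates 2 and 3, with adjusted p up to 0.033. Hypoxia replicate 3 had 71 FAS counts against 252 and 251 in the other two, and without it the change was −0.57 (adjusted p = 0.025). The difference in the hypoxia response was 0.59 for sgXIST7 minus sgCtl (adjusted p = 0.27) and 0.27 for sgXIST9 minus sgCtl (adjusted p = 0.67).

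FAS lies on chromosome 10, from 88990798 to 89017059 on the plus strand (hg38), head to head with ACTA2, the smooth muscle actin gene, which runs on the minus strand from 88935074 to 88991397. Their spans overlap, but no exon base is shared in the deposited annotation and the nearest exons are 32 bases apart. ACTA2 was named after its values were seen, because its libraries separate as those of FAS do. In normoxia it had 51.8, 35.4 and 22.04 CPM in sgCtl, 354, 259 and 292 CPM in sgXIST7 and 174, 197 and 152 CPM in sgXIST9. The KD libraries were again all above the sgCtl libraries, with log2 fold changes of 3.05 ± 0.35 (adjusted p = 5e-06) in sgXIST7 and 2.26 ± 0.34 (adjusted p = 9e-05) in sgXIST9. In hypoxia ACTA2 was higher by 2.61 ± 0.34 in sgXIST7 (adjusted p = 1.7e-05) and by 2.22 ± 0.34 in sgXIST9 (adjusted p = 9.2e-05). The strand setting of the counting is not given in the sources used here, and the part of reads from either gene in the count of the other was not tested. The 3 fibroblast markers of the checks summed to 0.939 to 1.26 CPM in sgCtl, 1.35 to 5.05 in sgXIST7 and 1.79 to 2.74 in sgXIST9 in normoxia, and to 1.19 to 3.37, 1.81 to 2.63 and 3.79 to 7.17 CPM in hypoxia, and their part in the result was not tested. FAS-AS1, an antisense gene that shares 196 exon bases with FAS, held at most 11 counts.

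**Figure D2:**
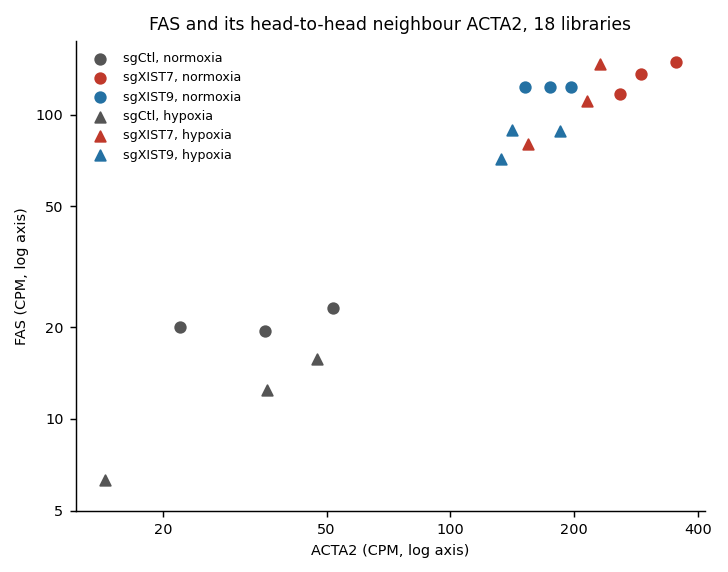
FAS against ACTA2 in CPM on log axes, 1 point for each of the 18 libraries. The 6 sgCtl libraries lie at the lower left, at up to 23.2 CPM of FAS and 51.8 CPM of ACTA2, and the 12 KD libraries at the upper right, at 71.5 CPM of FAS or more.

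The sequences in front of FAS, which was raised in both KD lines, and CASP8, whose hypoxia response differed between lines, are shown with each CG pair in capitals, since CG pairs are the sites of DNA methylation in promoters. They are RefSeq promoter bases of the build GRCh38.p14, plus strand, up to the base before the first exon in the count table, chr10:88990548-88990797 for FAS and chr2:201233213-201233442 for CASP8. Of the 10 genes, 6 had a promoter in the RefSeq table. FAS and CASP8 had 3 promoter windows each, of which only the window with the lowest start is shown, and the others were not searched.
FAS: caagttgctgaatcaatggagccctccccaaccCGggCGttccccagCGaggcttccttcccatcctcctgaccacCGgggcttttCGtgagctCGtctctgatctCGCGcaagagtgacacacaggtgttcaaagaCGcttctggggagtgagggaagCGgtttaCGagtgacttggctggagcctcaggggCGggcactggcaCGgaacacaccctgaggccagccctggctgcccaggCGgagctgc
CASP8: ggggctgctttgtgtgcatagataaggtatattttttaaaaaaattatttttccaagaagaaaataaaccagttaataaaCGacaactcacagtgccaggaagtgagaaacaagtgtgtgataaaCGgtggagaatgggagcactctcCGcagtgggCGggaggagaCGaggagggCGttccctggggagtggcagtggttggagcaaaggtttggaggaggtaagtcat
The FAS stretch of 250 bases holds 14 CG pairs and is 62.8% G and C, against a median of 11 CG pairs in the first 250 bases of all 35116 promoter windows. The CASP8 stretch of 230 bases holds 6 CG pairs and is 46.1% G and C, against a median of 9 in the first 230 bases. The letters ACGTG, one form of the core that hypoxia-inducible factors bind, occur in neither stretch on either strand, and other forms were not searched. ACGTG occurs in 18.5% of windows over 250 bases and 17.0% over 230 bases. Neither count says whether a factor binds there.

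The other signaling receptors showed no change with the KD that passed the test. TNFRSF1A had 59.6, 70.5 and 72.5 CPM in sgCtl in normoxia, and all 18 libraries lay between 44.9 and 79.2 CPM. Its log2 fold changes ranged from −0.24 to 0.22 over the 4 KD and the 3 hypoxia comparisons, and the 95% confidence intervals of all 7 lay between −0.51 and 0.50. TNFRSF10B, known as DR5, had 100.2, 91.5 and 93.5 CPM in sgCtl, 91.7, 85.8 and 88.0 CPM in sgXIST7 and 101, 103 and 96.5 CPM in sgXIST9, all in normoxia. These groups differ by little. Its KD changes lay between −0.18 and 0.07, with intervals between −0.48 and 0.37. In hypoxia it rose by 0.47 ± 0.14 in sgXIST7 (adjusted p = 0.0098, edgeR), and the values were 0.42 in sgCtl (adjusted p = 0.021) and 0.18 in sgXIST9 (adjusted p = 0.31). The sgXIST7 call held in 1 of 6 fits that left out a library, the one without hypoxia replicate 1, and was lost without any of the other 5, where the change was 0.32 to 0.50 and the adjusted p up to 0.067. TNFRSF10B shares 64 exon bases with RHOBTB2 on the opposite strand, which held 90 to 490 counts.

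The decoy TNFRSF10D was the one member that rose in hypoxia in all 3 lines. This is 12.5% of the 8 tested members, beside 12.2% of all genes tested that rose in all 3 lines. TNFRSF10D lies with TNFRSF10B, TNFRSF10C and TNFRSF10A in a cluster of 205.0 kb on chromosome 8. In sgCtl it had 39.9, 30.4 and 36.6 CPM in normoxia and 248, 243 and 155 CPM in hypoxia. In sgXIST7 it had 44.6, 36.7 and 42.4 CPM in normoxia and 244, 293 and 297 CPM in hypoxia. In sgXIST9 it had 42.9, 35.8 and 38.8 CPM in normoxia and 166, 160 and 249 CPM in hypoxia. Every hypoxia library was above every normoxia library. The decoy rose 6.04-fold in sgCtl (log2 fold change 2.59 ± 0.20, adjusted p = 2.6e-08, edgeR), 6.74-fold in sgXIST7 (2.75 ± 0.20, adjusted p = 6.2e-09) and 4.89-fold in sgXIST9 (2.29 ± 0.19, adjusted p = 5.4e-08). These 3 comparisons share no library, and the call held in each of the 6 fits per line that left out a library.

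With the KD TNFRSF10D differed by 0.21 and 0.14 in normoxia for sgXIST7 and sgXIST9, and by 0.37 and −0.17 in hypoxia (adjusted p = 0.48, 0.68, 0.11 and 0.52, edgeR). In hypoxia the sgXIST7 level exceeded that of sgXIST9 by 0.54 ± 0.18 (adjusted p = 0.051). Without the replicate 3 libraries this difference was 0.73 (adjusted p = 0.00069), and the sgXIST9 level was below that of sgCtl by 0.59 (adjusted p = 0.0018). The handling of reads that match several of these paralogues is not given in the sources used here.

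Within each library the counts per kb of the decoy were set against those of TNFRSF10B, the receptor it competes with. The ratio was 0.423 ± 0.041 (SD, n = 3) in sgCtl, 0.527 ± 0.0368 in sgXIST7 and 0.444 ± 0.0451 in sgXIST9 in normoxia. In hypoxia it was 2.0 ± 0.766 in sgCtl, 2.6 ± 0.294 in sgXIST7 and 1.9 ± 0.215 in sgXIST9. The decoy transcript thus went from the lower to the higher of the pair in all 9 hypoxia libraries, of which sgCtl replicate 3 had the lowest ratio, 1.13. The exact permutation test gave p = 0.1 in each line, two-sided, the smallest value that 3 against 3 libraries allow.

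**Figure D3:**
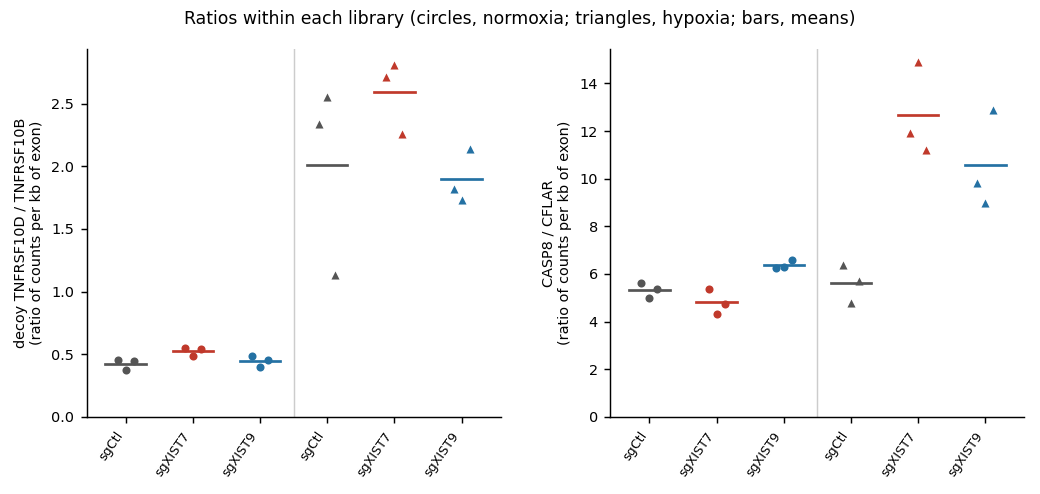
Ratios of counts per kb of exon within each library, TNFRSF10D over TNFRSF10B on the left and CASP8 over CFLAR on the right, with points for libraries and bars for means of 3 replicates. The decoy ratio is above 1 in all 9 hypoxia libraries, and the CASP8 ratio is highest in the 6 KD libraries in hypoxia, at 8.99 or more, against 6.59 or less in the other 12.

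FADD, the adaptor between receptor and caspase, was lower in sgXIST7 cells in hypoxia. It had 40.6, 42.3 and 38.1 CPM in sgCtl, 26.7, 25.8 and 26.8 CPM in sgXIST7 and 29.4, 34.6 and 29.2 CPM in sgXIST9 in hypoxia. Both KD groups were below all sgCtl libraries. With sgXIST7 it fell by 0.61 on the log2 scale (± 0.12, adjusted p = 0.00058, edgeR), and with sgXIST9 the change was −0.38 ± 0.12 (adjusted p = 0.021, and 0.0026 by DESeq2). In normoxia the KD changes were −0.25 and −0.06 (adjusted p = 0.14 and 0.79). From normoxia to hypoxia FADD fell by 0.46 in sgXIST7 (adjusted p = 0.0029) and by 0.42 in sgXIST9 (adjusted p = 0.0059), and the value was −0.10 in sgCtl (adjusted p = 0.51). The sgXIST7 call was lost without normoxia replicate 1 or 3 or hypoxia replicate 2 (adjusted p up to 0.017), and the sgXIST9 call without normoxia replicate 2 or 3 or hypoxia replicate 1 or 3 (up to 0.033). The hypoxia responses of the KD lines and sgCtl differed by −0.36 and −0.32 (adjusted p = 0.17 and 0.27), so that a difference in response was not shown. FADD lies on chromosome 11 from 70203163 to 70207402 on the plus strand.

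CASP8, the initiator caspase of the axis, rose in hypoxia in both KD lines, while its change in sgCtl did not pass. In normoxia it had 80.6, 77.7 and 84.5 CPM in sgCtl, 58.4, 51.4 and 53.3 CPM in sgXIST7 and 66.5, 63.2 and 69.5 CPM in sgXIST9. In hypoxia it had 65.3, 48.9 and 83.3 CPM in sgCtl, 113, 148 and 164 CPM in sgXIST7 and 100.2, 77.7 and 163 CPM in sgXIST9. The order of the lines thus turned, with sgCtl above both KD lines in normoxia and below both group means in hypoxia, where sgXIST9 and sgCtl overlapped. The change from normoxia to hypoxia was 1.38 ± 0.22 in sgXIST7 (2.6-fold, adjusted p = 4.6e-05, edgeR), 0.77 ± 0.22 in sgXIST9 (1.71-fold, adjusted p = 0.0064) and −0.30 ± 0.22 in sgCtl (adjusted p = 0.26). The sgXIST9 call was lost without hypoxia replicate 3 (0.43, adjusted p = 0.058) or without any of its 3 normoxia libraries (adjusted p up to 0.026). Without the 3 replicate 3 hypoxia libraries the values were 1.27 in sgXIST7, 0.43 in sgXIST9 (adjusted p = 0.012) and −0.50 in sgCtl (adjusted p = 0.0054).

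The difference in the CASP8 response was tested itself. It was 1.68 ± 0.31 for sgXIST7 minus sgCtl (adjusted p = 0.0048) and 1.07 ± 0.31 for sgXIST9 minus sgCtl (adjusted p = 0.053). The sgXIST7 difference was lost without any of 10 of the 12 libraries, all but sgCtl hypoxia replicate 3 and sgXIST7 hypoxia replicate 1, with values of 1.5 to 1.74 and adjusted p of 0.012 to 0.016. Without the replicate 3 hypoxia libraries both differences passed, at 1.78 (adjusted p = 1.4e-05) and 0.93 (adjusted p = 0.0031). Within hypoxia CASP8 was 2.15-fold higher with sgXIST7 than with sgCtl (1.11 ± 0.22, adjusted p = 0.00078). With sgXIST9 the value was 0.79 ± 0.22 (adjusted p = 0.012), which passed with the replicate number as a block (0.77, adjusted p = 0.0035), by DESeq2 (adjusted p = 0.006), and without sgCtl replicate 3 (adjusted p = 0.0029) or sgXIST9 replicate 2 (adjusted p = 0.0019). It did not pass with RLE scaling (adjusted p = 0.016) or in a fit of the compared groups alone (adjusted p = 0.13), and it was 0.43 without sgXIST9 replicate 3 (adjusted p = 0.095). In normoxia the KD values were −0.57 (adjusted p = 0.073) and −0.29 (adjusted p = 0.40).

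CFLAR, the inhibitor encoded near CASP8, passed in none of the comparisons. CFLAR, CASP10 and CASP8 follow each other on the plus strand of chromosome 2, with CFLAR from 201116104 to 201176687, CASP10 from 201182898 to 201229406 and CASP8 from 201233443 to 201287711. CFLAR had 84.1, 91.7 and 92.4 CPM in sgCtl, 63.6, 69.6 and 66.0 CPM in sgXIST7 and 62.2, 58.8 and 61.9 CPM in sgXIST9 in normoxia. The KD libraries were all below the sgCtl libraries there, with values of −0.43 ± 0.17 in sgXIST7 (adjusted p = 0.082, edgeR) and −0.55 ± 0.17 in sgXIST9 (adjusted p = 0.025), which did not pass. In hypoxia the groups overlapped, with 60.1, 60.2 and 85.6 CPM in sgCtl, 55.6, 58.3 and 85.6 CPM in sgXIST7 and 59.8, 50.7 and 74.0 CPM in sgXIST9. Replicate 3 was the highest of each group. The change in hypoxia was −0.38 in sgCtl (adjusted p = 0.067), 0.00 in sgXIST7 (95% confidence interval −0.36 to 0.35) and 0.01 in sgXIST9 (−0.34 to 0.37). Without the replicate 3 hypoxia libraries CFLAR was lower in hypoxia in sgCtl by 0.57 (adjusted p = 6e-05).

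The ratio of CASP8 to CFLAR per kb compares caspase and inhibitor within a library and needs no scaling between libraries. It was 5.32 ± 0.326 (SD, n = 3) in sgCtl, 4.82 ± 0.53 in sgXIST7 and 6.39 ± 0.173 in sgXIST9 in normoxia. In hypoxia it was 5.62 ± 0.811 in sgCtl, 12.7 ± 1.93 in sgXIST7 and 10.6 ± 2.06 in sgXIST9. The hypoxia libraries of each KD line lay above all its normoxia libraries (exact permutation p = 0.1, two-sided, the smallest possible), while those of sgCtl overlapped (p = 0.6).

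CASP2 fell in sgXIST7 cells. It had 48.6, 61.6 and 45.4 CPM in sgCtl, 25.4, 34.8 and 24.4 CPM in sgXIST7 and 46.8, 43.5 and 41.5 CPM in sgXIST9 in normoxia. In hypoxia it had 44.9, 62.6 and 27.0 CPM in sgCtl, 15.8, 12.9 and 8.37 CPM in sgXIST7 and 31.4, 33.6 and 23.0 CPM in sgXIST9. The sgXIST7 libraries were below all others of the same oxygen level. In hypoxia CASP2 was 3.6-fold lower with sgXIST7 than with sgCtl (log2 fold change −1.85 ± 0.27, adjusted p = 4.5e-05, edgeR), and the sgXIST9 value was −0.62 ± 0.26 (adjusted p = 0.080). In normoxia the sgXIST7 value was −0.88 ± 0.26 (adjusted p = 0.020), which passed with the replicate number as a block (−0.88, adjusted p = 0.0014) and by DESeq2 (adjusted p = 0.0064), and the sgXIST9 value was −0.24 (adjusted p = 0.57). From normoxia to hypoxia CASP2 fell by 1.17 in sgXIST7 (adjusted p = 0.0011), with values of −0.58 in sgXIST9 (adjusted p = 0.063) and −0.20 in sgCtl (adjusted p = 0.53). The difference in response was −0.97 for sgXIST7 minus sgCtl (adjusted p = 0.10) and −0.38 for sgXIST9 minus sgCtl (adjusted p = 0.58). A difference between the KD lines and sgCtl in the CASP2 response to hypoxia was thus not shown.

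CASP2 was also the one member that separated the KD lines, with sgXIST7 below sgXIST9 in hypoxia by 1.23 ± 0.27 (−1.23, adjusted p = 0.0041). This call was lost without sgXIST7 replicate 2 or 3 or sgXIST9 replicate 1 or 2 (adjusted p up to 0.026). sgCtl replicate 3 was the lowest sgCtl library in hypoxia, and without it the sgXIST9 value in hypoxia was −0.875 (adjusted p = 0.0055). Without sgCtl replicate 2, the highest, it was −0.30 (adjusted p = 0.44). CASP2 lies on chromosome 7 from 143288351 to 143307696 on the plus strand.

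**Figure D4:**
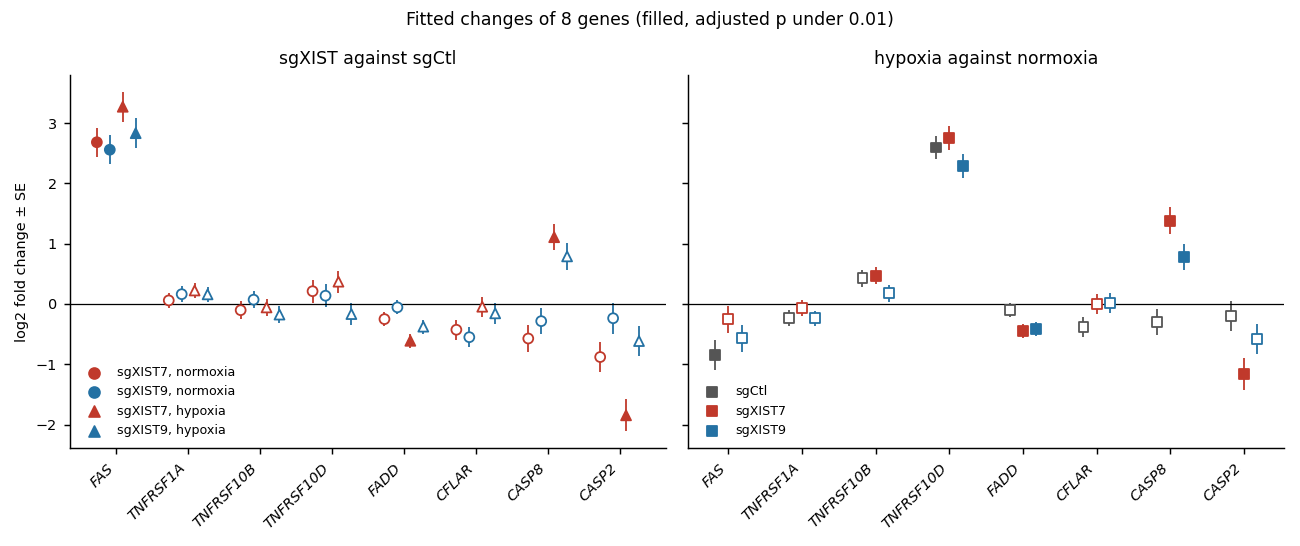
Fitted log2 fold changes with standard errors for the 8 tested genes, KD against sgCtl on the left and hypoxia against normoxia on the right, with filled symbols where the adjusted p was under 0.01. FAS stands alone above 2 on the left and TNFRSF10D on the right, and CASP8 and CASP2 lie apart from 0 in sgXIST7 cells.

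Counted over the 8 tested members, the KD comparisons in normoxia had 1 passing gene each, FAS. In sgXIST7 this stands beside 13.5% of all 14938 genes passing at an adjusted p under 0.01 and 7.76% that also had an absolute log2 fold change above 1, and in sgXIST9 beside 13.1% and 7.70%. In hypoxia 4 members passed with sgXIST7 (FAS and CASP8 higher, FADD and CASP2 lower), against 27.6% of all genes and 14.0% past the fold threshold, and 1 with sgXIST9 (FAS), against 17.9% and 9.53%. These counts were 4 and 4 without the replicate 3 libraries, the additions with sgXIST9 being CASP8, CASP2 and TNFRSF10D. The shares of all genes were not computed for that fit. With the replicate block 2 members passed with sgXIST7 in normoxia (FAS and CASP2) and 2 with sgXIST9 in hypoxia (FAS and CASP8).

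From normoxia to hypoxia 2 members passed in sgCtl (TNFRSF10D higher and FAS lower), 5 in sgXIST7 (TNFRSF10D, CASP8 and TNFRSF10B higher, FADD and CASP2 lower) and 3 in sgXIST9 (TNFRSF10D and CASP8 higher, FADD lower). The shares of all genes were 37.6%, 46.7% and 42.1%, and 19.7%, 27.3% and 23.3% past the fold threshold. The member counts were 4, 6 and 2 without the replicate 3 hypoxia libraries, with CASP8 and CFLAR (lower) added in sgCtl, FAS (lower) added in sgXIST7, and CASP8 and FADD lost and FAS (lower) added in sgXIST9. The shares of all genes were not computed for that fit either. Each member is 12.5% of the list, so its shares are coarse beside the backgrounds of the main fit. The difference in response passed for 1 member in sgXIST7 (CASP8), against 2.17% of all genes (1.52% past the fold threshold). In sgXIST9 it passed for 0 by edgeR, against 1.26% (1.01%), and for 0 by DESeq2, with 1 at an unadjusted p under 0.05 (CASP8). Between the KD lines in normoxia 0 members passed by edgeR, against 4.97% (3.40%), and 0 by DESeq2. There 1 member had an unadjusted p under 0.05 (CASP2). In hypoxia 1 passed between the KD lines (CASP2), against 8.43% (4.46%). All these shares are for an adjusted p under 0.01 by edgeR, and none was computed at an unadjusted p. The median log2 fold change of the members lay between −0.22 and 0.16 in all 11 comparisons, and that of all genes between −0.03 and 0.09.

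The wider pathway was read from a list of 54 further genes by role, of which 43 were tested. Its ligands were nearly silent. Of 7 ligand genes 2 were tested, TNF had 0 counts in every library and FASLG had 1 count in each of 2 libraries. TNFSF10, which encodes TRAIL, had 3, 2 and 9 counts in sgCtl, 13, 9 and 8 in sgXIST7 and 27, 13 and 20 in sgXIST9 in normoxia. In hypoxia it had 17, 21 and 17 counts in sgCtl, 76, 88 and 38 in sgXIST7 and 102, 67 and 57 in sgXIST9. These are low counts, and the KD libraries in hypoxia were the highest. TNFSF10 rose in hypoxia in each line, by 1.94 ± 0.40 in sgCtl (adjusted p = 0.00073, edgeR), 2.94 ± 0.34 in sgXIST7 (adjusted p = 1.3e-06) and 1.87 ± 0.31 in sgXIST9 (adjusted p = 7.9e-05). With the KD it rose by 1.61 and 1.66 in hypoxia with sgXIST7 and sgXIST9 (adjusted p = 0.00065 and 0.00066) and by 1.73 in normoxia with sgXIST9 (adjusted p = 0.0045), and the value with sgXIST7 in normoxia was 0.61 (adjusted p = 0.38).

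Of 10 further receptors and decoys 5 were tested. TNFRSF10C, a second TRAIL decoy that is anchored to the membrane by a lipid, was rare, with at most 3 counts per sgCtl library and at most 30 in the KD libraries. In hypoxia it was higher by 2.53 with sgXIST7 (adjusted p = 0.0025, edgeR) and by 3.04 with sgXIST9 (adjusted p = 0.00055), where the sgCtl libraries held 3, 0 and 3 counts. TNFRSF21, the receptor DR6, fell with the KD in hypoxia, with values of −1.81 with sgXIST7 (adjusted p = 4.6e-05) and −1.09 with sgXIST9 (adjusted p = 0.0037). NGFR, the neurotrophin receptor of the same family, fell there in both lines (−4.45 and −4.32, adjusted p = 4.8e-06 and 6.4e-06) and of −2.75 with sgXIST9 in normoxia (adjusted p = 0.0043). It rose in hypoxia in sgCtl by 3.37 (adjusted p = 2.2e-05), from 23, 14 and 28 counts to 405, 286 and 51, the lowest being replicate 3. TNFRSF12A, the receptor for TWEAK, fell by 1.09 with sgXIST7 in normoxia (adjusted p = 0.0032) and had a value of −1.003 with sgXIST9 in hypoxia (adjusted p = 0.0046), and rose in hypoxia in sgXIST7 by 1.85 (adjusted p = 6.5e-06).

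Among 17 tested adaptors, kinases and ubiquitin enzymes 0 passed with the KD in normoxia, beside 13.5% (sgXIST7) and 13.1% (sgXIST9) of all genes. In hypoxia 2 passed with sgXIST7 and 1 with sgXIST9, all higher, beside 27.6% and 17.9% of all genes. From normoxia to hypoxia 6 were higher and 4 lower in sgCtl, 5 and 3 in sgXIST7, and 7 and 3 in sgXIST9, beside 37.6%, 46.7% and 42.1% of all genes passing in either direction. TRADD, the adaptor of TNFRSF1A, had 6.58, 7.27 and 8.61 CPM in sgCtl in normoxia and 26.1, 19.9 and 62.7 CPM in hypoxia. Every hypoxia library was above the normoxia ones, and TRADD rose by 2.26 in sgCtl (adjusted p = 7.7e-05, edgeR), 2.95 in sgXIST7 (adjusted p = 2.8e-06) and 2.86 in sgXIST9 (adjusted p = 6.3e-06). BIRC3, a ubiquitin ligase of the TNF receptor complex, rose most, from 2.62, 2.78 and 2.99 CPM to 39.3, 55.4 and 84.3 CPM in sgCtl. Its changes were 4.41, 4.22 and 4.76 in sgCtl, sgXIST7 and sgXIST9 (adjusted p = 2.2e-08, 1.2e-08 and 4.7e-09). BIRC2, its close relative, rose by 1.41, 1.32 and 1.39, and CYLD, which removes the ubiquitin chains, by 1.24, 0.98 and 0.79.

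TNFAIP3, another enzyme that edits these chains, rose by 1.84 in sgCtl and 1.32 in sgXIST9 (adjusted p = 0.00073 and 0.0064), and its value in sgXIST7 was 0.72 (adjusted p = 0.11). FAF1, a FAS-associated protein, fell in all 3 lines in hypoxia (−1.57, −1.49 and −1.40), as did TRAF2, the ring finger partner of TRADD (−0.84, −1.70 and −0.91 in sgCtl, sgXIST7 and sgXIST9). RIPK1, the kinase of the TNF receptor complex, rose in sgXIST9 in hypoxia by 0.61 (adjusted p = 0.0011), and its other 6 values lay between −0.06 and 0.35. On the CASP2 side, PIDD1 fell in hypoxia in sgCtl by 1.48 (adjusted p = 1.7e-05), from 20.8, 19.8 and 13.95 CPM to 6.31, 6.70 and 6.47 CPM. It was higher with the KD in hypoxia by 1.12 with sgXIST7 (adjusted p = 0.0004) and 0.98 with sgXIST9 (adjusted p = 0.0016). CRADD did not pass in any of the 7 comparisons, with values of −0.68 to 0.70.

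Of 4 further regulators PEA15, a death effector domain protein, rose in hypoxia in sgCtl by 1.48 (adjusted p = 0.00017, edgeR) and fell with the KD in hypoxia, with values of −0.99 and −1.17 (adjusted p = 0.0055 and 0.0023). All 15 downstream genes were tested. BID, a substrate of caspase-8 that links it to mitochondria, passed in none of the 7 comparisons, with values of −0.22 to 0.32. CASP9, the caspase of the mitochondrial route, rose in sgXIST7 in hypoxia by 0.56 (adjusted p = 0.0091) and was higher with sgXIST7 than with sgCtl in hypoxia by 0.66 (adjusted p = 0.0056). APAF1, the platform on which caspase-9 is activated, rose in hypoxia by 1.39, 1.93 and 1.59 in sgCtl, sgXIST7 and sgXIST9. BIRC5, which encodes survivin and is a gene of dividing cells, fell in hypoxia in all 3 lines (−1.21, −2.21 and −2.67), and with the KD in hypoxia (−1.02 and −1.28). DFFB, the nuclease that cuts DNA in apoptosis, fell in hypoxia (−1.01, −2.51 and −2.10) and with sgXIST7 against sgCtl in hypoxia (−1.11), and rose with sgXIST9 in normoxia by 0.91 (adjusted p = 0.0091). CYCS, cytochrome c, fell in hypoxia in sgXIST9 by 1.02 (adjusted p = 8.1e-05), and LMNA, a nuclear lamin and caspase substrate, in sgXIST7 by 1.00 (adjusted p = 0.00057). The group means of LMNA in sgCtl, sgXIST7 and sgXIST9 were 121.6, 220.8 and 223.1 CPM in normoxia. In hypoxia they were 114.4, 110.1 and 145.3 CPM, so the fall in sgXIST7 began above the sgCtl level.

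**Figure D5:**
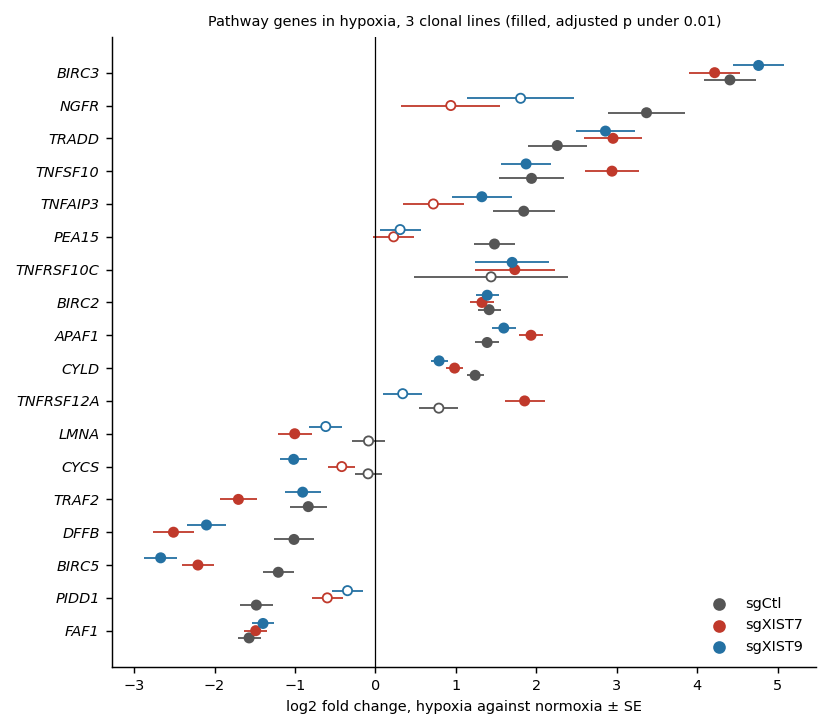
Log2 fold changes with standard errors from normoxia to hypoxia for the 18 further pathway genes past both thresholds in at least 1 of the 3 hypoxia comparisons, with filled symbols where the adjusted p was under 0.01. BIRC3, TRADD, TNFSF10, BIRC2, APAF1 and CYLD lie to the right in all 3 lines, and FAF1, BIRC5, DFFB and TRAF2 to the left.

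Over the 43 tested pathway genes, 2 and 4 passed with sgXIST7 and sgXIST9 in normoxia (4 with sgXIST7 under the replicate block), 13 and 9 in hypoxia, and 17, 20 and 18 from normoxia to hypoxia in sgCtl, sgXIST7 and sgXIST9. These are shares of 4.65%, 9.3%, 30.2%, 20.9%, 39.5%, 46.5% and 41.9%, to be read beside the shares of all genes given above. Without the replicate 3 hypoxia libraries the counts in hypoxia were 19 and 12, and those from normoxia to hypoxia 25, 26 and 24. The shares of all genes were computed for the main fit only, so counts from fits without some libraries have no background beside them. In hypoxia 7 or 8 passed with sgXIST7 when sgCtl replicate 1 or 2 or sgXIST7 replicate 2 or 3 was left out. Leaving out 1 normoxia library at a time left 0 or 1 of them in either normoxia comparison. In all 3 lines 7 genes (16.3%) rose and 5 (11.6%) fell in hypoxia, against 12.2% and 12.2% of all genes tested. The difference in response passed for 0 genes in sgXIST7 by edgeR, beside 2.17% of all genes. It passed for 5 by DESeq2, and 13 had an unadjusted p under 0.05. In sgXIST9 it passed for 1 by edgeR, BIRC5 (−1.46 ± 0.27, adjusted p = 0.0061), beside 1.26% of all genes. The shares of all genes by DESeq2 and at an unadjusted p were not computed.

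The genes whose normalized log2 CPM followed that of CASP8 most closely over the 18 libraries were RAB3IP (Pearson r = 0.954), TMEM144 (0.935) and AIG1 (0.931). The libraries share their 6 groups, so these values describe a common order of groups. RAB3IP had 389, 387 and 532 counts in sgCtl in normoxia and 391, 493 and 307 in hypoxia, and 463, 379 and 519 counts in sgXIST7 in normoxia and 696, 877 and 493 in hypoxia.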

How the data were processed

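RNA was measured by rRNA-depleted, stranded, paired-end sequencing. The authors used Trimmomatic for trimming, HISAT2 for alignment (hg38) and featureCounts for gene counts, and the deposited values are whole counts per gene without normalization. Versions and the strand setting are not given in the sources used here. The table held 28279 lines, of which 2 broken ones with 0 counts were left out. Groups and replicate numbers come from the sample titles.

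All 18 libraries were fitted at once in edgeR 4.0.16 (quasi-likelihood test, TMM scaling, filterByExpr with a minimum count of 10, limma 3.58.1, R 4.3.3), with 6 groups and no covariate. P-values were adjusted by Benjamini-Hochberg over 14938 genes. Passing means an adjusted p under 0.01. CPM are counts scaled by the TMM-adjusted library total. Exon lengths are those deposited with the table. The scripts were tested on simulated data. P-values measure the spread between replicates, which the study calls biological.

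Same-numbered replicates deviated together, with each of 3 correlations above 0.1, for sgXIST7 and sgCtl in normoxia (0.148 to 0.379) and for sgXIST9 and sgCtl in hypoxia (0.197 to 0.566), so blocked values are given for those 2 comparisons where the block changed a call or moved a count by over 1.5 times. In the other 7 comparisons of a pair of groups not all 3 correlations were above 0.1. Single ones reached 0.492 there, for replicate 3 of sgXIST7 and sgXIST9 in hypoxia.

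The members and gene lists were chosen with earlier results of these data known. Named are all 10 members, FASLG, TNF, TNFSF10, TRADD, RIPK1, BID, CASP9, PIDD1, CRADD, each listed pathway gene past both thresholds in 1 of the 7 KD and hypoxia comparisons, and the 3 genes most like CASP8. Other genes that were fixed by name are not reported here. Alternatives were DESeq2 1.42.0, RLE scaling, no filter, fits restricted to the groups compared, the replicate block, an adjusted p under 0.05, and each library left out.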

Additional observations from a re-analysis of the deposited data

Results flagged for a closer look

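CASP8 is given here because its response to hypoxia differed between lines by the test of the difference itself, 1.68 on the log2 scale for sgXIST7 minus sgCtl (± 0.31 SE, adjusted p = 0.0048, edgeR). CASP8 counts were higher in all 3 sgXIST7 hypoxia libraries than in all 3 sgXIST7 normoxia libraries, and the sgCtl groups overlapped. The call was lost in 10 of 12 fits that left out a library. With 3 libraries per group, no group was large enough for the check on single outlying libraries.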

How the results depend on the processing

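Of 19 member values that passed, 0 changed direction under any of 232 alternative fits, 184 of these still passed and 48 did not. Precision is limited by 3 libraries per group and by the low counts of TNFSF10 and TNFRSF10C, and TNFRSF10A and CASP10 were under the filter of the main fit.

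Counts of passing members moved as follows, with shares of all genes computed for the main fit only. For sgXIST7 in normoxia (1) they were 2 by DESeq2, 4 with only the groups compared, 2 with the replicate block and 2 at an adjusted p under 0.05. For sgXIST9 in normoxia (1) they were 3 with only the groups compared, 2 with the block and 2 at 0.05. For sgXIST9 in hypoxia (1) they were 3 by DESeq2, 2 with the block, 3 at 0.05, 4 without the replicate 3 hypoxia libraries and 1 to 3 with a library left out. From normoxia to hypoxia in sgCtl (2) they were 1 with RLE scaling, with only the groups compared, without the filter and with the block, 4 without the replicate 3 libraries and 1 to 2 with a library left out. In sgXIST7 (5) they were 3 with only the groups compared and 3 to 5 with a library left out, and in sgXIST9 (3) 4 with the block and at 0.05, 2 without the filter, 2 without the replicate 3 libraries and 1 to 3 with a library left out. For the difference in response they were 2 without the replicate 3 libraries in each KD line, and with a library left out 0 to 2 in sgXIST7 (1) and 0 to 1 in sgXIST9 (0). Between the KD lines in hypoxia (1) they were 0 with only the groups compared, 2 without the replicate 3 libraries and 0 to 2 with a library left out.

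Counts of passing pathway genes for sgXIST7 in normoxia (2) were 4 by DESeq2, 7 with only the groups compared, 4 with the block, 5 at 0.05 and 0 to 1 with a library left out. For sgXIST9 in normoxia (4) they were 10 with only the groups compared, 7 at 0.05 and 0 to 1 with a library left out. In hypoxia they were 4 for sgXIST7 (13) and 1 for sgXIST9 (9) with only the groups compared, and 7 to 19 and 6 to 10 with a library left out. From normoxia to hypoxia in sgCtl (17) the count was 27 at 0.05 and 14 to 22 with a library left out. The causes were not tested. With the replicate block the gained members were CASP2 (sgXIST7, normoxia) and CASP8 (sgXIST9, hypoxia), and no other member call changed in those paired comparisons. In the others the block added CFLAR for sgXIST9 in normoxia (−0.55, adjusted p = 0.0058) and CASP2 for hypoxia in sgXIST9 (−0.61, adjusted p = 0.0077). Leaving out the replicate 3 hypoxia libraries was added after seeing the data. Outside the 2 paired comparisons a shared replicate number was not taken as a pairing. Correlations over all pairs of groups ran from −0.073 to 0.566, and those among the replicate 3 hypoxia libraries from 0.38 to 0.566.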

Other observations

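The following pathway genes, below the fold threshold, were picked with their values known. RNF31, a ligase that builds linear ubiquitin chains, fell in hypoxia by 0.62, 0.88 and 0.83 in sgCtl, sgXIST7 and sgXIST9 (adjusted p = 0.00011, 1.7e-06 and 4.3e-06, edgeR). MADD, a death domain protein that binds TNFRSF1A, rose by 0.45, 0.52 and 0.66 (adjusted p = 0.0042, 0.00099 and 0.00014). PARP1, a caspase substrate, fell by 0.90 in sgXIST7 and 0.66 in sgXIST9, and its value in sgCtl was −0.33 (adjusted p = 0.027). XIAP, an inhibitor of caspases, passed in none of the 7 KD and hypoxia comparisons, with values between −0.08 and 0.12.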
